A study of Glycine max with 24 samples.

Results

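A total of 88 transcripts were expressed in leaves of the soybean line LD and nearly absent from those of LDX. They were chosen by their level in the parents alone: a mean of 1 CPM or more (counts per 1000000 of the library total) over the 6 LD libraries and under 0.1 CPM over the 6 LDX libraries. They are 88 of the 41743 transcripts listed, and 0.307% of the 28643 transcripts that reached 1 CPM in LD. Each belongs to a locus of its own.

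The recombinant inbred lines R-11268 and R-11272 come from a cross of LD with LDX. The RNA was measured alongside a study of how DNA methylation differences pass to such lines. Detached trifoliolate leaves of plants aged 3 weeks, grown under a 16 h photoperiod, were pooled from 5 plants of a genotype. The slices were floated on water overnight and then kept for 30 min in the dark in 5 ml of 1 µM flg22 with 50 µg of crab shell chitin (MAMP), or in water with DMSO (control, the mock solution). Each line thus gave 3 MAMP and 3 control libraries, in the lines R-11268, R-11272, LD and LDX, 24 in all. The replicate number was read as the plant pool, so that a line has 3 pools and each pool a MAMP and a control library. Every value is a pool of plants and of all leaf cell types, so fewer expressing cells and less RNA per cell cannot be told apart.

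A recombinant inbred line is made by selfing the progeny of a cross until nearly every locus is fixed for the allele of a single parent, and neighbouring loci tend to be inherited together. A transcript found in only 1 parent can therefore mark parental origin in such a line, if its presence or absence is inherited with its own locus. That condition was not tested here. In plants, genes whose expression is present in some varieties and absent in others often belong to large, locally clustered families, among them resistance gene families. Leaf cells recognise flg22, which is part of the flagellin protein of bacteria, and chitin, which fungi build into their walls, as microbe-associated molecular patterns (MAMPs), and respond with a fast change in transcription. None of the 88 identifiers (0 matched) could be paired with a gene name, so no function is given for any of them.

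Libraries held 9780810 to 20827163 estimated counts. The deposited values have the form of fitted values: in each line the ratio of MAMP to control was the same in all 3 pools, with an SD under 0.001 on the log2 scale for 100% of transcripts with all 6 values above 0.1 estimated counts. They hold no replicate error of a MAMP effect, the SDs below describe differences between fitted pools, and a single read may be spread over 3 pools. A count of 0 over the 6 libraries of a line allows up to 0.0302 CPM in LDX and 0.0298 CPM in either recombinant line (3 counts of the total, counting error only). Fitted values far below 1 count are written as 0. LDX pool 3, R-11272 pool 1 and LD pool 2 stood apart from the rest, with a median correlation of 0.674 to 0.804 with the other pools against 0.896 to 0.936 for the other 9 pools. Counts alone cannot tell a gene that is missing from one that is silent, or from a diverged copy whose reads were not assigned.

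The levels in the parents, which chose the members, ranged from 1.02 to 49.8 CPM in LD with a median of 3.06 CPM. Of the 88, 13 reached 10 CPM and 29 stayed under 2 CPM in LD. In LDX the highest mean was 0.0993 CPM and the median 0.0103 CPM. Over 6 libraries, LD held 91.7 to 4351 estimated counts of a member and LDX at most 9.75, and 45 of the 88 had under 1 count in LDX. Just inside the LD limit lay Glyma08g42610.1 at 1.02 CPM and Glyma18g38390.1 at 1.04 CPM, and just outside it Glyma03g05740.1 at 0.994 CPM and Glyma08g09650.1 at 0.985 CPM. Just inside the LDX limit lay Glyma16g23790.1 at 0.0993 CPM and Glyma05g36750.1 at 0.0903 CPM in LDX, and just outside it Glyma06g37540.1 at 0.1002 CPM and Glyma18g42390.1 at 0.111 CPM.

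**Figure D1:**
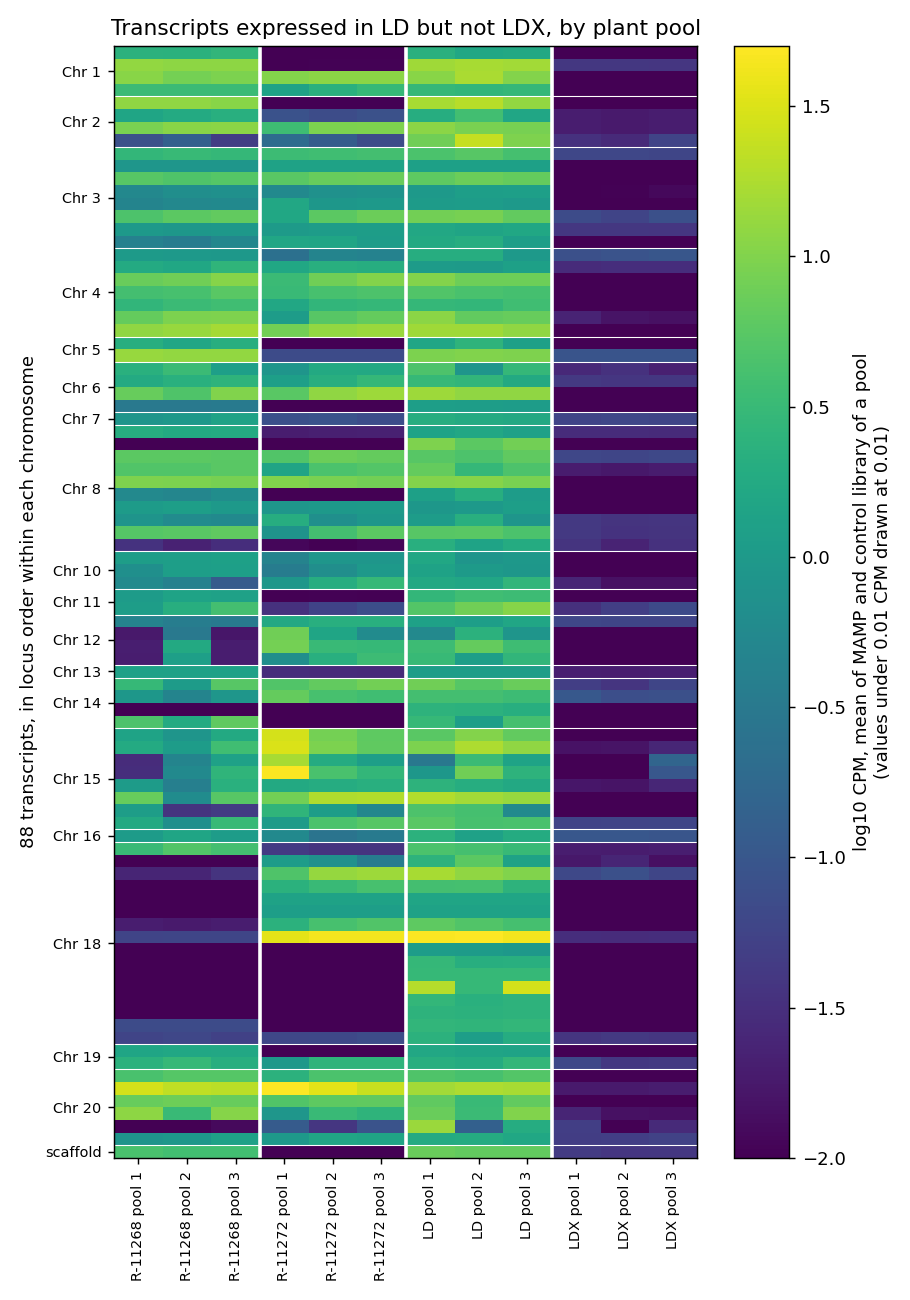
Level of each of the 88 transcripts (vertical axis, in locus order within each chromosome) in the 12 plant pools (horizontal axis), as log10 of the mean CPM of the MAMP and control library of a pool, with values under 0.01 CPM drawn at 0.01. The dark cells in the R-11268 and R-11272 columns are transcripts of LD that were absent or low there, for some transcripts only in some pools, as on chromosome 12. On chromosome 18 the R-11268 columns are dark for 15 of 16.

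The identifiers give the chromosome and the order of loci, and 87 members fell on 18 of the 20 chromosomes and 1 (Glyma1655s00200.1) on a scaffold. Chromosome 18 held the most, 16 members or 18.2% of the 88, which is 1.00% of its 1598 transcripts at 1 CPM or more in LD. Chromosome 8 held 10, chromosomes 3 and 15 held 8 each, and chromosome 4 held 7. These were 0.516%, 0.631%, 0.596% and 0.518% of the transcripts at 1 CPM or more in LD on chromosomes 8, 3, 15 and 4, against 0.307% over all. The 5 chromosomes with the most members carried 49 (55.7%), and chromosomes 9 and 17 carried 0. Of the 88 members, 41 had another member within 50 listed loci. No such count was made for other transcripts, so it does not show that members cluster. In 4 cases they were next to each other in the list, namely Glyma03g07020.1 with Glyma03g07030.1, Glyma15g17170.1 with Glyma15g17180.1, Glyma18g09720.1 with Glyma18g09730.1 and Glyma18g39460.1 with Glyma18g39470.1. How reads that match several copies were assigned was not stated, so the split between such neighbours is uncertain.

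In the recombinant lines a member was called present at a mean of 1 CPM or more over the 6 libraries, absent under 0.1 CPM, and between otherwise. In R-11268, 51 members were present, 20 absent and 17 between. In R-11272, 51 were present, 29 absent and 8 between. Among all transcripts at 1 CPM or more in LD, 97.4% were present, 0.115% absent and 2.52% between in R-11268. For R-11272 these shares were 97.6%, 0.119% and 2.31%. Of the 33 such transcripts absent in R-11268, 20 (60.6%) were members, and of the 34 absent in R-11272, 29 (85.3%).

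Over both lines, 32 members were present in both, 15 were present in R-11268 and absent in R-11272, 6 were present in R-11272 and absent in R-11268, and 12 were absent in both. The other 23 lay between the limits in at least 1 line. Present members stood near the LD level. In R-11268 their median was 98.0% of LD (range 16.9 to 181%), with 43 of 51 at 50 to 200%, against a median of 105% over all transcripts present in LD and R-11268. In R-11272 the median was 87.8% (range 32.8 to 478%), with 45 of 51 at 50 to 200%, against 96.3% over all transcripts. The 478% belonged to Glyma15g17180.1, at 47, 4.39 and 2.81 CPM by pool in R-11272, and without pool 1, which stands apart, it was at 95.4% of LD. The 4 members above 200% were at 84.5 to 181% without that pool. Members between the limits had 9.13 to 68.6% of the LD level in R-11268 (median 28.3%) and 0.954 to 95% in R-11272 (median 42.0%).

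**Figure D2:**
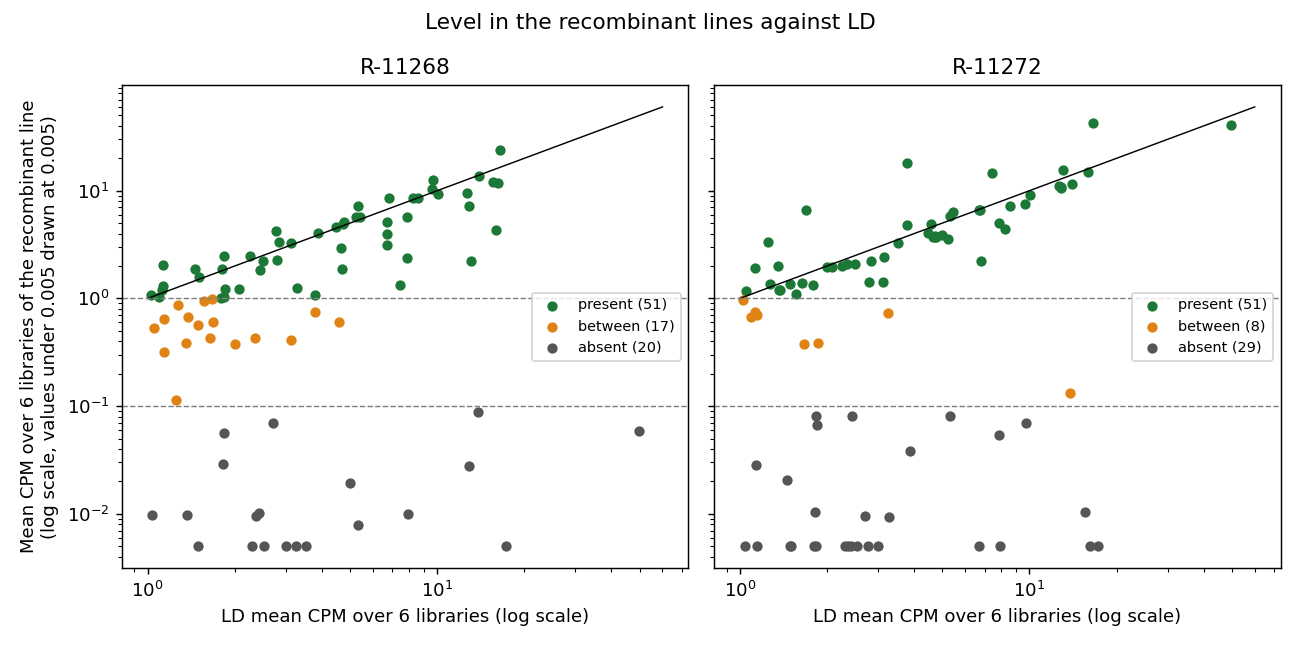
Mean CPM over 6 libraries in a recombinant line (vertical axis, log scale, values under 0.005 drawn at 0.005) against that in LD (horizontal axis, log scale) for the 88 transcripts, with R-11268 on the left and R-11272 on the right. The solid line marks equal levels and the dashed lines 1 and 0.1 CPM; most present transcripts lie along the line, and 20 (R-11268) and 29 (R-11272) lie under 0.1 CPM.

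Among the 32 members present in both lines, Glyma20g20350.1 and Glyma15g28850.1 had the highest LD level. Glyma20g20350.1 had 31.3, 24 and 22.3 CPM in R-11268 control pools, 86.8, 47.4 and 32.3 CPM in R-11272 and 17.5, 20.4 and 19.3 CPM in LD. After MAMP it had 27, 20.6 and 19.1 CPM in R-11268, 49, 24.2 and 16.1 CPM in R-11272 and 12.9, 15.1 and 14 CPM in LD. Its controls in both recombinant lines lay above all LD controls, and R-11272 pool 1, which stands apart from other pools, was the highest. The edgeR quasi-likelihood log2 difference of R-11268 minus R-11272 was -1.49 in controls (Benjamini-Hochberg adjusted p = 0.167), which did not pass 0.05. Glyma15g28850.1 had 8.63, 0.78 and 6.87 CPM in R-11268 controls, 7.38, 17.4 and 18.5 CPM in R-11272 and 20.3, 16.4 and 14.4 CPM in LD. Its R-11268 pool 2 was far below the other R-11268 pools, and the difference between the lines did not pass the test (-1.54 in controls, edgeR adjusted p = 0.313).

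Among the 15 members present in R-11268 and absent in R-11272, Glyma02g03220.1 and Glyma01g02080.1 had the highest LD level. The class was set on these same libraries, so the lack of overlap and the adjusted p-values below follow in part from it. Glyma02g03220.1 had 13.7, 13.9 and 12.3 CPM in R-11268 controls and 0 in R-11272 controls, against 17, 21 and 13.2 CPM in LD and 0 in LDX. After MAMP it had 10.6, 10.7 and 9.44 CPM in R-11268 and 0 in R-11272, against 15.4, 19.1 and 11.7 CPM in LD. The groups did not overlap: over 3 control libraries R-11268 held 657 estimated counts and R-11272 0, at least 212-fold higher in R-11268 when the R-11272 libraries together are given the floor of 3 counts (edgeR adjusted p = 1.43e-06). Glyma01g02080.1 had 11.5 ± 0.429 CPM in R-11268 MAMP libraries and 0 in those of R-11272 (SD, n = 3 pools), at least 201-fold higher (edgeR adjusted p = 1.12e-09). In controls it had 12.6 ± 0.419 CPM in R-11268 and 0.999 estimated counts over the 3 R-11272 libraries, a ratio of 605 (108 to 23905), a counting interval at 95%. In LD it had 13.8 ± 0.803 CPM in controls, so R-11268 pools at 13.1, 12.3 and 12.4 CPM lay close to those of LD at 13.1, 14.6 and 13.6 CPM. Of the other members of this class, Glyma05g36750.1 had a mean of 12.7 CPM in R-11268 and 0.0702 CPM in R-11272, where LD had 9.71 CPM.

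All 6 members present in R-11272 and absent in R-11268 lay on chromosome 18. This class too was set on the libraries compared, so the adjusted p-values below follow in part from it. Glyma18g35940.1 had the highest LD level of all 88 members, at 51.5, 61.6 and 45.9 CPM in controls. It had 0.0198, 0.0204 and 0.0201 CPM in R-11268 controls and 37.4, 46.9 and 48.8 CPM in R-11272 controls. After MAMP it had 0.096, 0.0982 and 0.0968 CPM in R-11268 and 33.6, 38.1 and 38.7 CPM in R-11272. The R-11268 controls together held 0.994 estimated counts against 2132 in R-11272, so R-11272 was higher by a ratio of 2211 (394 to 86860.0) (edgeR adjusted p = 8.95e-11). Glyma18g09720.1 had 0.0163, 0.0165 and 0.0241 CPM in R-11268 controls and 4.31, 12.6 and 14 CPM in R-11272 controls, against 17.1, 12.4 and 10.3 CPM in LD. Its R-11272 pool 1 was the lowest of that line yet above every R-11268 value (edgeR adjusted p = 1.90e-08). Glyma18g31990.1 had 0.0193, 0.0181 and 0.0193 CPM in R-11268 MAMP libraries and 2.38, 4.06 and 4.67 CPM in those of R-11272, with 0.97 and 203 estimated counts over 3 libraries (edgeR adjusted p = 1.61e-06).

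Of the 88 members, 12 were absent in both recombinant lines, 8 of them on chromosome 18. Glyma18g43980.1 had 22.5, 3.42 and 34.2 CPM in LD controls and 16.4, 2.51 and 24.5 CPM in LD after MAMP, and 0 in R-11268, R-11272 and LDX. Its LD pool 2, the pool of LD that stands apart, was the lowest of the 3. Glyma08g21150.1 had 9.21, 5.56 and 7.69 CPM in LD controls, and 0.978 estimated counts over the 6 R-11268 libraries and 0 over those of R-11272. Glyma08g48310.1, Glyma14g07650.1 and Glyma20g34670.1 were the members off chromosome 18 that shared this state, at 1.82, 2.3 and 5.34 CPM in LD. In LD, Glyma20g34670.1 had 13.9, 0.137 and 1.94 CPM by pool, so pool 1 carried its level. Of the 12, the most seen over 3 libraries of a treatment was 5.82 estimated counts in R-11268, for Glyma18g50300.1 after MAMP. R-11272 had 4.86 of it after MAMP, and R-11268 was higher by a ratio of 1.23 (0.314 to 5.11). The most in R-11272 was 4.93 estimated counts, for Glyma20g34670.1 in controls. R-11268 had 0.808 of it in controls, and R-11272 was higher by a ratio of 6.29 (0.577 to 244). No test of these 12 between the recombinant lines passed 0.05, and these counts cannot show a difference.

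Among the members between the limits, Glyma02g46310.1 and Glyma12g12280.1 had the highest LD level. Glyma02g46310.1 had 0.111, 0.184 and 0.0647 CPM in R-11268 controls and 0.28, 0.169 and 0.105 CPM in R-11272 controls, against 10.4, 30.8 and 12.6 CPM in LD and 0.0505, 0.0408 and 0.0874 CPM in LDX. Both recombinant lines were thus near LDX, with 8.64 and 12.6 estimated counts over 6 libraries against 1118 in LD. Glyma12g12280.1 is described below with the other members of chromosome 12.

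The contrast between the recombinant lines compares libraries that did not choose the members, although the LD and LDX libraries entered the filter and the estimate of the spread. In controls, 30 of the 88 differed, 18 higher in R-11268 and 12 lower (34.1%), against 1.96% of all 33214 tested transcripts (0.867% higher and 1.1% lower; edgeR quasi-likelihood test, Benjamini-Hochberg adjusted p under 0.05). After MAMP, 26 differed, 17 higher and 9 lower (29.5%), against 1.84% of all (0.665% higher and 1.17% lower). The same 26 were called in controls, in the same direction, but both tests rest on the same pools, and p-values may be too small because each pool enters the spread with both of its libraries. All 15 members present in R-11268 and absent in R-11272 and all 6 in the opposite state were called in both treatments, which follows in part from setting the states on these levels. Of the 32 members present in both lines, 2 were called in controls and 1 after MAMP. With only the 6 libraries compared, 70 members in controls and 72 after MAMP passed the filter on low counts, and the others had passed through other libraries. Then 21 of the 70 (30.0%) were called in controls, against 0.52% of all transcripts, and 22 of the 72 (30.6%) after MAMP, against 0.753%.

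Of the 13 members between the limits in R-11268 and present in R-11272, 4 were lower in R-11268 in controls. Glyma12g09350.1 had the smallest difference among the calls after MAMP. It had 0.506, 0.412 and 0.362 CPM in R-11268 and 2.12, 2.56 and 2.49 CPM in R-11272 after MAMP, with no overlap, at -2.59 ± 0.18 on the log2 scale (SE, edgeR adjusted p = 3.33e-08). The smallest call in controls was Glyma20g38990.1, with 0.753, 0.821 and 1.19 CPM in R-11268 and 1.07, 1.77 and 1.65 CPM in R-11272 controls. Its groups overlapped, and the log2 difference of -0.9 (edgeR adjusted p = 0.0462) was ended by 10 of 12 alternative analyses.

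Chromosome 18 held the longest run of absences. In R-11268 15 of its 16 members were absent and 1, Glyma18g04740.1, was present at 104% of LD. In R-11272 the order along the chromosome was different: Glyma18g04740.1 was absent, Glyma18g05300.1 stood at 22.6% of LD, the next 6 members (Glyma18g09720.1 to Glyma18g35940.1) were present at 77.6 to 92.7% of LD, and the last 8 (Glyma18g38390.1 to Glyma18g50300.1) were absent. Among the last 8, Glyma18g38390.1, Glyma18g39460.1 and Glyma18g39470.1 lay within 24 listed loci of each other. Glyma18g39470.1 had 2.39, 2.38 and 2.41 CPM in LD controls and 0 in R-11268, R-11272 and LDX.

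The 74 transcripts with the opposite pattern, at 1 CPM or more in LDX and under 0.1 CPM in LD, gave the other parent's side. On chromosome 18 there were 11. In R-11268 8 of them were present and 3 between, at 41.6 to 135% of the LDX level. In R-11272 3 were present and 8 absent, and the 3 present lay among the last 8 LD transcripts of that chromosome that were absent there.

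**Figure D3:**
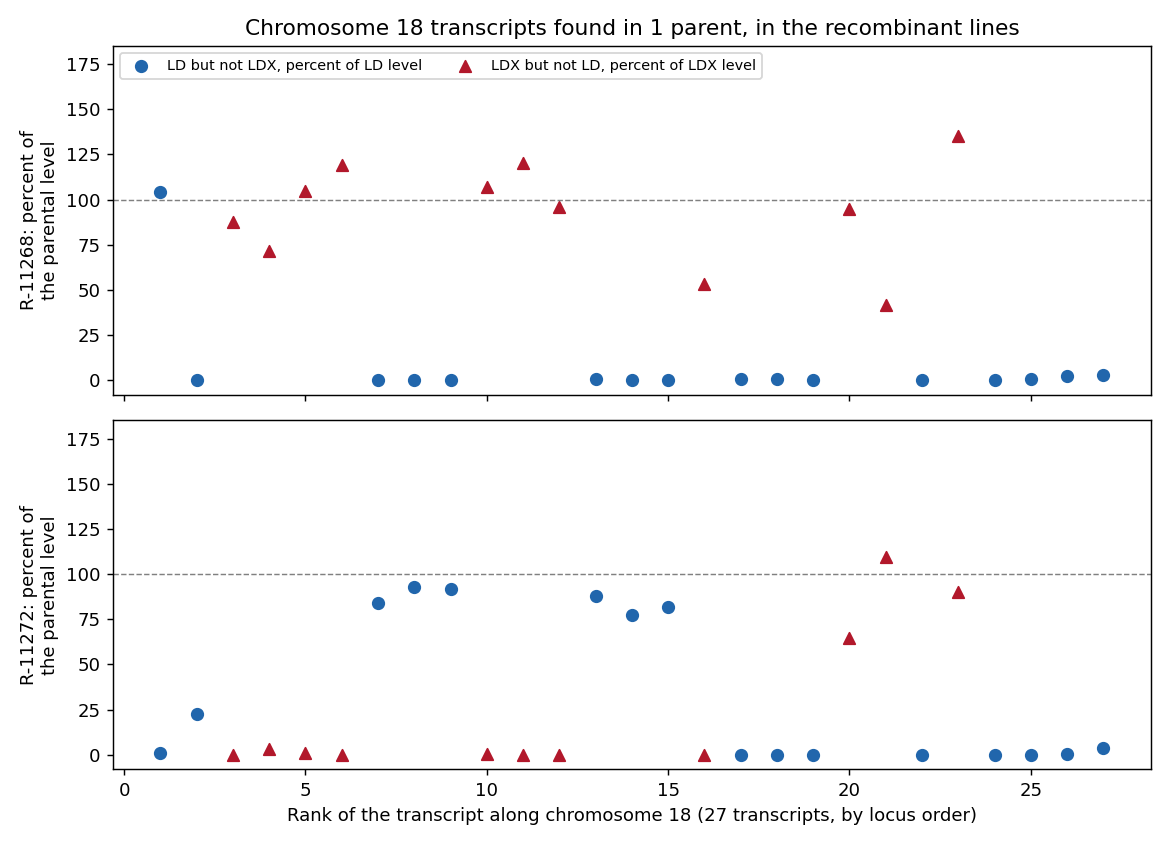
Level in R-11268 (top) and R-11272 (bottom) as a percent of the level in the parent that expresses the transcript (vertical axis), for 16 transcripts found in LD but not LDX (circles) and 11 found in LDX but not LD (triangles) on chromosome 18, in locus order (horizontal axis, rank and not distance). In R-11268 the circles lie near 0 after the first, while the triangles lie at 41.6 to 135%; in R-11272 the 6 circles near the parental level stand together.

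Of 69 pairs of members that follow each other on a chromosome, 43 (62.3%) had the same state in R-11268 and 49 (71.0%) in R-11272. Over all 3828 pairs of members the shares were 41.8% and 44.6%. Chromosome 18 carried the excess in R-11268, with 14 of its 15 neighbouring pairs in the same state (93.3%). Nearly all its members shared that state whatever their order, since 87.5% of all pairs of its 16 members agreed. In R-11272 12 of its 15 neighbouring pairs agreed (80.0%), against 42.5% of all pairs of its members. On the other chromosomes 29 of 54 neighbouring pairs (53.7%) agreed in R-11268, against 53.6% of all pairs of their 72 members, and 37 of 54 (68.5%) in R-11272, against 47.0%. Of the 25 neighbouring pairs within 50 listed loci, 16 shared a state in R-11268 and 20 in R-11272. These shares are given without a test, since neighbouring pairs share members.

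For 24 members a transcript of the opposite pattern lay within 50 listed loci, 19 such transcripts in all. In R-11272 exactly 1 of the pair was present and the other absent in 22 of 24 cases: the LD transcript was the one present in 15 and the LDX transcript in 7. In R-11268 this held in 14 of 24 cases (8 with the LD and 6 with the LDX transcript present), both were present in 2, and in 8 at least 1 lay between the limits. The nearest such pair, chosen after its values were seen, was Glyma13g43060.1 of LD beside Glyma13g43070.1 of LDX. In R-11268 the LD transcript was present (114% of LD) and its neighbour absent, and in R-11272 the LD transcript was absent (2.52% of LD) and its neighbour present. Of all 74 transcripts of the opposite pattern, 30 were present and 33 absent in R-11272, and 23 were present and 29 absent in R-11268. The share over all pairs, near or far, was not computed, so the counts of near pairs stand without a comparison.

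The longest stretch of members with gaps of at most 50 listed loci lay on chromosome 3, with 8 members from Glyma03g04890.1 to Glyma03g07830.1 across 125 listed loci. In R-11268 they stood at 26.1 to 77.1% of LD (median 61.8%), 3 present and 5 between. In R-11272 they stood at 61.3 to 112% (median 81.7%), 7 present and 1 between. Glyma03g04890.1 had 3.02, 3.29 and 3.05 CPM in R-11268 controls and 3.32, 3.78 and 4.0 CPM in R-11272, where LD had 4.5, 5.59 and 4.17 CPM. Every control of both recombinant lines was thus below every LD control, and the difference between the recombinant lines was not called (edgeR adjusted p = 0.241). Glyma03g07830.1 had 0.345, 0.294 and 0.433 CPM in R-11268 and 1.57, 1.57 and 1.19 CPM in R-11272 controls, against 2.07, 2.36 and 1.39 CPM in LD. Its R-11268 pools lay below all others, and the difference from R-11272 of -2.26 passed the test in controls (edgeR adjusted p = 0.00622) but not with only the 6 libraries compared (0.0754). With pool sums, which add the MAMP and control library of a pool, the line difference did not pass either (edgeR adjusted p = 0.055). On the same chromosome, 5 of 6 transcripts of the opposite pattern also lay between the limits in R-11268 and 1 was absent, all at 29.6% of the LDX level or less.

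The next stretch, on chromosome 8, held 4 members from Glyma08g30580.1 to Glyma08g38200.1 across 100 listed loci. Glyma08g30580.1 had 6.36, 6.43 and 6.19 CPM in R-11268, 5.22, 7.93 and 7.35 CPM in R-11272 and 6.31, 5.45 and 7.24 CPM in LD controls, and these overlapped. Glyma08g38200.1 had 0.467, 0.416 and 0.552 CPM in R-11268 controls and 0 in R-11272, against 1.09, 1.84 and 0.973 CPM in LD. The stretch thus held 1 member with a different state in R-11272 from its 3 neighbours (edgeR adjusted p = 0.0044 for Glyma08g38200.1 between the lines in controls).

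For most members of chromosomes 12 and 15 the level in R-11268 depended on the pool. All 4 members of chromosome 12 lay between the limits in R-11268, at 9.13 to 28.3% of LD, and all 4 were present in R-11272. Glyma12g12280.1 had 0.0233, 2.06 and 0.023 CPM in R-11268 controls, 9.73, 3.91 and 3.65 CPM in R-11272 and 3.89, 7.63 and 4.1 CPM in LD. Only pool 2 of R-11268 carried it, at a level below that of each LD pool. By pool, the mean of the MAMP and control library was 0.0182, 0.309 and 0.0166 CPM for Glyma12g12130.1 and 0.0196, 1.24 and 0.0195 CPM for Glyma12g25730.1 in R-11268, again with pool 2 alone above 0.1 CPM. Values near 0.02 CPM correspond to about 1 read spread over 3 pools. The remaining member, Glyma12g09350.1, was even, at 0.454, 0.37 and 0.326 CPM. Pool spread was not confined to R-11268 here. In R-11272 Glyma12g12130.1 had 7.86, 1.51 and 0.612 CPM by pool and Glyma12g25730.1 had 0.666, 2.19 and 3.42 CPM.

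The 8 members of chromosome 15 stood at 13.3 to 59.4% of LD in R-11268 (median 27.9%) and were all present in R-11272 (median 107%). By pool Glyma15g28850.1 had 6.9, 0.622 and 5.48 CPM in R-11268 against 19, 15.4 and 13.4 CPM in LD. Glyma15g36570.1 had 1.17, 0.036 and 0.0433 CPM in R-11268, where pool 1 alone was above 0.1 CPM, against 4.7, 4.07 and 0.589 CPM in LD. Glyma15g17170.1 and Glyma15g17180.1, which are next to each other, were lowest in pool 1 and highest in pool 3 of R-11268, at 0.029, 0.47 and 1.3 CPM and 0.0305, 0.571 and 2.65 CPM. In LD the same pair ranged from 0.30 to 3.37 CPM and from 0.904 to 7.93 CPM, with LD pool 2 the highest, so pool spread at these loci was not confined to R-11268. In R-11272 the pair had 16.6, 1.89 and 1.18 CPM and 47, 4.39 and 2.81 CPM, with pool 1 the highest. The R-11268 pools of Glyma15g15750.1, Glyma15g16300.1 and Glyma15g38440.1 were less than 5-fold apart.

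Over all members at 0.1 CPM or more in R-11268, 8 of 68 (11.8%) had pools 5-fold or more apart, all on chromosomes 12 and 15, against 0.748% of all transcripts at 1 CPM or more in LD and 0.1 CPM or more in R-11268. In R-11272 the share was 8 of 59 (13.6%) against 10.4%, and 43 of those 59 members were lowest in pool 1, the pool that stands apart. In LD it was 6 of 88 (6.82%) against 2.26%. The members of chromosomes 12 and 15 were singled out after their values were seen, and no test was made of their pool spread.

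**Figure D4:**
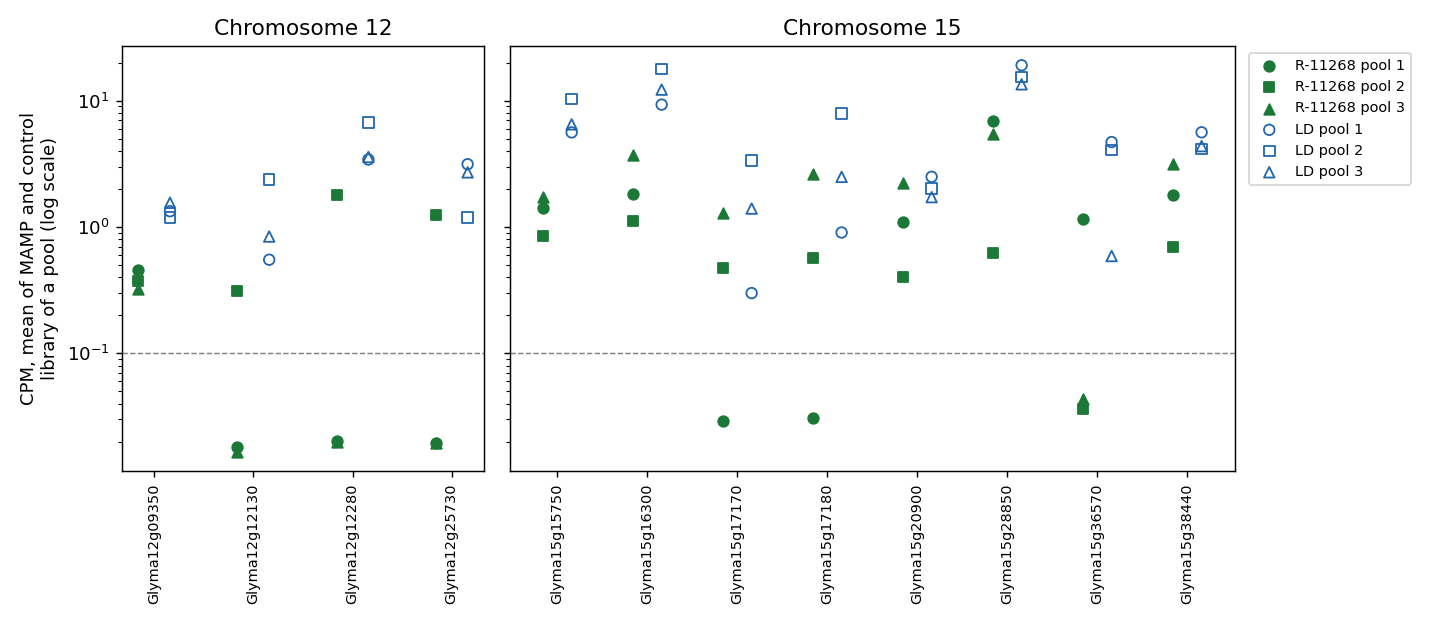
Mean CPM of the MAMP and control library of each pool (vertical axis, log scale) for the 4 transcripts on chromosome 12 and the 8 on chromosome 15 (horizontal axis), in the 3 pools of R-11268 (filled) and of LD (open); the dashed line marks 0.1 CPM. For Glyma12g12130, Glyma12g12280 and Glyma12g25730 only pool 2 of R-11268 lies above the line, and for Glyma15g36570 only pool 1.

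MAMP treatment changed few of the members. A member absent from a line has no response to measure there, so counts are given over the members at 1 CPM or more in the line, beside all transcripts at that level. In LD 5 of 88 rose and 0 fell (5.68%), against 4.83% of all such transcripts (4.58% higher and 0.251% lower; edgeR quasi-likelihood test, Benjamini-Hochberg adjusted p under 0.05). In R-11268 2 of 51 rose and 0 fell (3.92%), against 3.51% (3.31% higher and 0.195% lower). In R-11272 1 of 51 rose and 1 fell (3.92%), against 4.27% (3.94% higher and 0.334% lower). These shares were near the background. The median log2 response of these members was 0.02 in LD, 0.01 in R-11268 and -0.07 in R-11272, against -0.02, -0.01 and -0.02 over all such transcripts. Over all 88, calls numbered 3 for R-11268 and 4 for R-11272. Those of members under 1 CPM were Glyma03g07240.1 in R-11268 and Glyma04g04230.1 and Glyma02g07650.1 in R-11272. In LD 5 members reached the 1 CPM limit only through their MAMP libraries and 5 only through their controls, so the rule is not fully free of the LD response. The limit in a recombinant line averages both treatments too, for members and for all transcripts. Glyma11g35370.1 in R-11268 and Glyma03g07240.1 in R-11272, both counted as rises, had control means under 1 CPM and passed through their MAMP libraries. Of the members at 1 CPM or more in a line, 82 of 88 in LD, 49 of 51 in R-11268 and 48 of 51 in R-11272 had a log2 response between -1 and 1.

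Glyma11g35370.1 had the largest rise. In LD it had 9.29, 14.1 and 19.3 CPM after MAMP and 0.979, 1.48 and 2.07 CPM in controls, a log2 response of 3.31 ± 0.49 (SE, edgeR adjusted p = 0.000412). In R-11268 it had 1.98, 3.6 and 6.83 CPM after MAMP and 0.296, 0.541 and 1.03 CPM in controls, at 2.76 (edgeR adjusted p = 0.00391; 0.0586 with only the 6 libraries compared). The MAMP and control groups did not overlap in either line, though the pools of a line share the same fitted ratio of MAMP to control. In R-11272, where it was absent, it held 5.9 estimated counts after MAMP and 0 in controls over 3 libraries (edgeR adjusted p = 0.20). Its level in R-11268 was 30.2% of that in LD, and it was higher in R-11268 than in R-11272 in both treatments (edgeR adjusted p = 0.00891 in controls, but 0.136 without the 3 pools that stand apart).

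Glyma03g07240.1, within the chromosome 3 stretch, rose in LD, R-11268 and R-11272. It had 1.44, 1.34 and 1.36 CPM after MAMP and 0.523, 0.489 and 0.497 CPM in controls of R-11268, 1.61, 1.7 and 1.72 and 0.46, 0.537 and 0.559 CPM in R-11272, and 2.56, 2.2 and 2.45 and 0.768, 0.657 and 0.746 CPM in LD. No MAMP library overlapped a control of its line, but the pools of a line share the same fitted ratio and are not separate responses. The log2 responses were 1.5, 1.65 and 1.85 in that order (edgeR adjusted p = 0.000125, 5.18e-06 and 9.78e-08). All LD controls of Glyma03g07240.1 were under 1 CPM, so it met the LD limit only through its MAMP libraries. Its rise in LD is therefore not independent of the choice of members. The scaffold transcript Glyma1655s00200.1 rose in LD (1.51) and R-11268 (1.38) and was absent in R-11272. The other calls in LD were Glyma06g41720.1 (1.29) and Glyma20g08080.1 (0.69). The LD control mean of Glyma06g41720.1 was also under 1 CPM, so its rise in LD is not independent of the choice of members either.

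Glyma04g04230.1 rose in R-11272, with 0.371, 0.73 and 0.677 CPM after MAMP and 0.0944, 0.205 and 0.195 CPM in controls (1.99, edgeR adjusted p = 0.00372; 0.0714 by DESeq2). In R-11268 its MAMP libraries had 0.962, 0.893 and 0.889 CPM and its controls 1.1, 1.02 and 1.02 CPM, so R-11268 exceeded R-11272 in controls (edgeR adjusted p = 0.000512). With pool sums the edgeR adjusted p was 0.195, but these add the MAMP and control library of a pool and do not test controls alone. The falls in R-11272 were near the limit of the test. Glyma02g07650.1 had 0 estimated counts after MAMP and 7.77 in controls over 3 libraries each (edgeR adjusted p = 0.0492), and Glyma04g12050.1 had 1.25, 1.58 and 1.47 CPM after MAMP and 1.94, 2.72 and 2.58 CPM in controls (-0.77, edgeR adjusted p = 0.0338). The call for Glyma02g07650.1 was ended by 9 of 11 alternative analyses and that for Glyma04g12050.1 by 8 of 12. Both were called in 0 of the fits that left out R-11272 control replicate 1, 2 or 3 or MAMP replicate 2 or 3, where the count of members called in R-11272 was 2, both higher, in place of 4.

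The difference in response between lines was read over members at 1 CPM or more in both lines compared. It passed the test for 0 of 51 members for R-11268 minus LD (0.0359% of all such transcripts called), 0 of 51 for R-11272 minus LD (0.0429%) and 0 of 32 for R-11268 minus R-11272 (0.0214%), by edgeR and by DESeq2. At an unadjusted p under 0.05 edgeR gave 4, 3 and 0 of these members and DESeq2 2, 3 and 0. Members absent in a recombinant line have no response to compare there. The response differences against LD share the LD libraries.

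**Figure D5:**
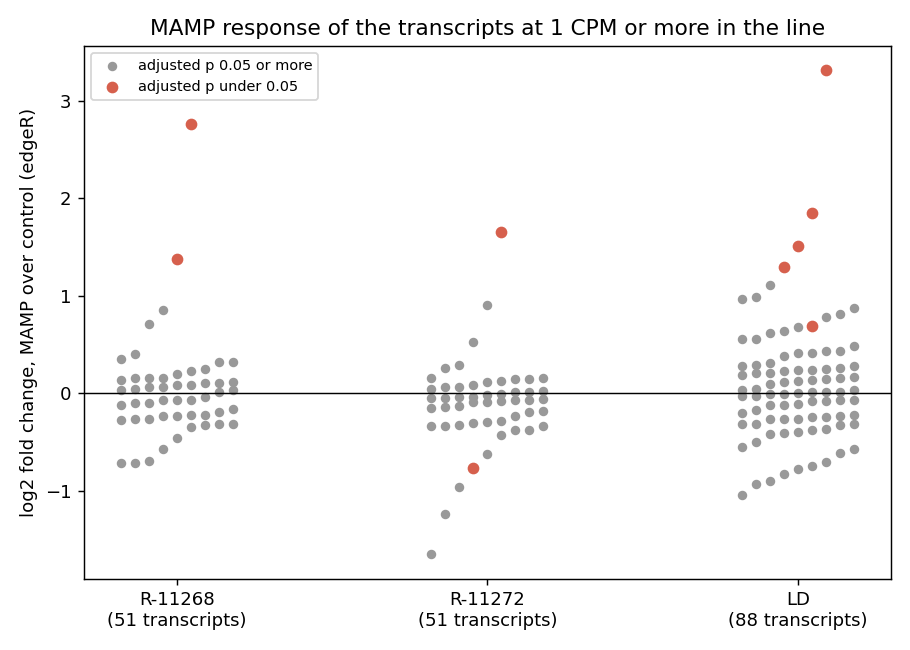
Log2 response to MAMP (vertical axis, edgeR, MAMP over control) of the transcripts at a mean of 1 CPM or more in R-11268 (51), R-11272 (51) and LD (88), side by side; red points have an adjusted p under 0.05, and sideways position is only for display. Most points lie between -1 and 1, and the highest is Glyma11g35370.1 at 2.76 in R-11268 and 3.31 in LD.

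The replicate block, which compares MAMP and control within a pool, could not serve for these fitted values, since almost no residual is left within a pool. It called 36 members in LD (20 higher and 16 lower, 40.9%), 17 in R-11268 and 17 in R-11272 (19.3% each), against 44.1%, 34.1% and 47.3% of all transcripts tested. For the response differences it called 19, 15 and 11 members for R-11268 minus LD, R-11272 minus LD and R-11268 minus R-11272, against 31.6%, 28.0% and 30.9% of all. Without the 3 pools that stand apart, 9 of the 88 were called in LD (10.2%), 6 in R-11268 (6.82%) and 2 in R-11272 (2.27%), against 7.52%, 8.19% and 9.62% of all. All shares of members in this paragraph are over the 88, of which 51 were present in R-11268 and 51 in R-11272. Members absent from a line have no response to call there. The shares for the recombinant lines therefore do not show a weaker response of the members.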

How the data were processed

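Leaf RNA of 4 lines was sequenced in 24 libraries (TruSeq kit, per the labels' protocols). For 41743 transcripts the authors deposited estimated counts per library. The submitters' processing notes name Bowtie 0.12.7, TopHat 1.4.1 and Cufflinks 1.1.0; not given in the sources used here are the step behind the estimated counts, the genome build, the annotation and the strand setting. Columns end in C, read as control, or P, which no label explains and which was read as MAMP. Of the identifiers, 0 matched the RefSeq table, so no names or sequences are given.

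CPM was taken over column totals. Values were rounded to whole numbers and tested in R 4.3.3 with edgeR 4.0.16: filterByExpr (minimum count 10, minimum total 15) kept 33214 transcripts, all 88 members among them, and 1 quasi-likelihood fit with TMM and 8 group means gave all contrasts, with Benjamini-Hochberg adjustment over all 33214. The fit has 16 residual degrees of freedom, which overstates the independent pools. Nothing in the labels says that pools were grown separately, so p-values measure the spread between these pools. The same replicate number was taken to pair a MAMP and a control library: their deviations correlated at 0.994 or more over 12 pairs, against 0.891 or less for other numbers, a pairing that the fitted form of the values cannot be told apart from.

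The members and lists were chosen with earlier results of these data known. Members were named by a rule: the 2 highest in LD of each class in the recombinant lines, up to 2 called rises and falls per response, the largest and smallest called line differences, the ends of the 3 longest stretches and the transcripts next to each limit; others are named as chosen after their values were seen or complete a count. Alternatives were DESeq2 1.42.0, RLE size factors, no filter, only the libraries compared, pool sums, the replicate block, each library left out, and other limits. Pool sums add the MAMP and control library of a pool, so the same test stands beside the control and the MAMP contrast. Leaving out the 3 pools that stand apart, each pool in turn for the states, and pool sums for the MAMP contrast were added after seeing the data.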

Additional observations from a re-analysis of the deposited data

How the results depend on the processing

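The number of transcripts that met the rule was 59 to 117 over other limits of LD (2 CPM) and LDX (0.05 and 0.2 CPM), 90 with TMM-scaled CPM and 97 without the 3 pools that stand apart, of which 84 were among the 88; with an LD limit of 0.5 CPM it was 151. Members between the limits depended most on the limits: at 0.5 and 0.2 CPM they were 6 for R-11268 and 2 for R-11272. Limits set as a ratio to LD gave 7 and 3. Leaving out 1 pool gave 46 to 51 present, 19 to 23 absent and 15 to 23 between in R-11268, and 49 to 51, 28 to 30 and 8 to 9 in R-11272.

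Leaving out 1 library gave 28 to 29 members called between the recombinant lines in controls and 25 to 27 after MAMP, 4 to 6 responding in LD, 3 in R-11268, 2 to 4 in R-11272 and 0 for each response difference. Over the other alternatives the line difference gave 21 to 31 calls in controls and 22 to 30 after MAMP. The response in R-11272 gave 1 call by DESeq2, 1 with only the libraries compared and 2 without the 3 pools apart, where LD gave 9 and R-11268 6. With the replicate block, which is void for fitted values, LD gave 36 calls, R-11268 17 and R-11272 17, and the response differences 19 (R-11268 minus LD), 15 (R-11272 minus LD) and 11 (R-11268 minus R-11272). The cause of these shifts was not tested. Of 272 alternative values for 23 called tests of named members, 239 kept the call, 33 lost it and 0 reversed direction; 12 named tests that were not called stayed so in 138 alternative values. All alternatives start from the same fitted values, and the scarcest member had 91.7 estimated counts over the 6 LD libraries.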

Other observations

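Of the 33 transcripts at 1 CPM or more in LD and absent in R-11268, 13 were not among the 88, and in R-11272 5 of 34 were not. In LDX 9 of the 13 had 0.111 to 0.491 CPM, and 3 of the 5 had 0.138 to 0.305 CPM. For 4 of the 13 and 2 of the 5, both parents were at 1 CPM or more. In 3 of the 4 single pools carried a parent's mean. By pool, Glyma06g14900.1 had 0.138, 2.79 and 0.288 CPM in LD and 0.124, 0.11 and 3.99 CPM in LDX, where the high pools are those that stand apart. Glyma01g37510.1 had 2.31, 0.618 and 0.0983 CPM in LD and 0.0584, 2.77 and 0.225 CPM in LDX.

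Glyma13g03540.1 on chromosome 13 was at 0 in all 12 libraries of R-11268 and R-11272. It had 2.8, 2.79 and 2.83 CPM in LD controls and 2.44, 2.39 and 2.54 CPM in LDX controls, and 3.35, 3.35 and 3.32 and 1.7, 1.73 and 1.63 CPM after MAMP, with 274 and 205 estimated counts over 6 libraries. Its neighbour in the list, Glyma13g03550.1, was also at 0 in R-11272, and in R-11268 it had 0.106, 0.078 and 0.0581 CPM in controls, against 3.15, 2.31 and 1.74 CPM in LD and 2.75, 1.93 and 1.53 CPM in LDX. The pair was chosen after its values were seen, and no test was made.

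Glyma15g06310.1 showed another order, with a mean over 6 libraries of 0.0666 CPM in R-11268 and 5.34 CPM in R-11272, where the parents had 1.02 CPM in LD and 5.42 CPM in LDX. By pool it had 10.4, 3.75 and 1.85 CPM in R-11272, 0.171, 2.14 and 0.74 CPM in LD and 1.28, 3.2 and 11.8 CPM in LDX. Of the LD pools, pool 2 alone was above 1 CPM. In R-11272, LD and LDX the highest pool was the one that stands apart, so these means rest in part on those pools. Glyma18g10140.1, just outside the LDX limit, was at 0 in R-11268 and 8.29 CPM in R-11272, where the parents had 5.56 CPM in LD and 0.138 CPM in LDX, which is the order seen in the 6 members of chromosome 18 present in R-11272 alone.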
